A study of Mus musculus with 4 samples.

Results

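The genes described here encode the enzymes of gluconeogenesis and fructose handling in the mouse kidney. They are 8 genes, taken by symbol from a list of enzymes, with no threshold on measured values, out of 32285 genes listed in each library: Pck1, G6pc, Fbp1, Pcx, Slc37a4, Khk, Tkfc and Glud1, and all 8 were found. They were read in scRNA-Seq libraries of whole kidneys from male C3H mice, 1 library for each of 4 conditions. WT mice and mice homozygous for Sweet Pee (SP), a missense mutation of Slc5a2 that the sample labels call SGLT2 MT, were given normal diet (ND) or high-fat diet (HFD, 60% of calories from fat) for 8 weeks from 10 weeks of age and harvested at 18 weeks. Each condition is written as genotype and diet, for example SP-HFD, and where 4 values follow each other they are those of WT on ND, WT on HFD, SP on ND and SP on HFD. The titles of the ND libraries name no diet and were read as ND because the design has no other. The mutation is inherited, so it is not limited to the tubule, and the number of mice behind each library is not given in the sources used here.

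Gluconeogenesis makes glucose from lactate, glutamine, glycerol and other small molecules, and apart from the liver the proximal tubule of the kidney is its main site. The same cells take up fructose and break it down, with ketohexokinase as the entry step, and they release ammonia from glutamine, which leaves a carbon skeleton that enters glucose synthesis. Pyruvate carboxylase and phosphoenolpyruvate carboxykinase open the path, fructose-1,6-bisphosphatase carries its middle step, and glucose-6-phosphatase with its transporter ends it with free glucose. A transcript level says nothing by itself about the activity of an enzyme or the flux through the path.

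Cells were assigned by marker UMIs (unique molecular identifiers, each counting 1 captured transcript). A cell was called early proximal tubule with at least 2 UMIs of Slc5a12, and late proximal tubule with at least 2 UMIs of Slc7a13. The libraries hold 90728590 to 115117649 UMIs over 13229 to 16385 barcodes, and 6754 to 10869 cells were kept in each. The early gate held 1237, 585, 371 and 286 cells in the 4 libraries, and the late gate 1457, 942, 528 and 319. Every pair of libraries shared fewer than 80 barcodes, 54 to 77, or at most 0.522% of the smaller library. The gated cells carried the general proximal tubule markers Lrp2 and Slc34a1 at 640 to 1442 CPM and 2001 to 3288 CPM, where CPM is the UMIs of a gene per 1000000 UMIs pooled over the cells of a group. Slc5a2, the mutated gene and a marker of the early segment, was at 531 and 366 CPM in early WT cells on ND and HFD and at 128 and 151 CPM in early SP cells, and the UMIs do not read the base change itself. The early cells differed in depth between libraries, with medians of 8823, 14708, 14190 and 15100 UMIs per cell in the same order, and their median mitochondrial share was 34.2%, 32.1%, 37.3% and 37.2%.

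The late cells of WT-HFD stand apart. Of these 942 cells, 73.4% (95% interval 70.4 to 76.2) also passed the marker gate of a class outside the proximal tubule, against 31.0% of late WT-ND cells and 33.5% and 35.7% of late SP cells on ND and HFD. The gates passed most often were those of the distal convoluted tubule (55.2%), the intercalated cell (50.3%) and the thick ascending limb (46.3%). Early cells passed another gate in 21.7% and 41.2% of cases in WT on ND and HFD, and in 31.3% and 28.3% in SP. Slc12a3 and Aqp2, markers of the distal convoluted tubule and the collecting duct, were at 267 and 169 CPM in late WT-HFD cells. In the late cells of the other libraries they were at 16.9 to 98.8 CPM. Late WT-HFD cells also held Spp1, the osteopontin gene, at 1155 CPM, against 137 to 191 CPM in the late cells of the other libraries. Early SP-ND cells held 646 CPM of Spp1 against 169 to 283 CPM in the other early groups. Havcr1, a marker of tubule injury, was at 0.93 to 4.91 CPM in every early and late group. The paper describes a proximal tubule cluster, found mainly in WT-HFD, that also expressed the thick ascending limb genes Slc12a1 and Umod. It reports lower G6pc and Hnf4a in that cluster. Whether the late WT-HFD cells with another gate belong to it was not tested. Doublets were not called here, and what the cells with another gate are was not tested, so values that rest on the late WT-HFD cells are given with and without cells that pass another gate.

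**Figure D1:**
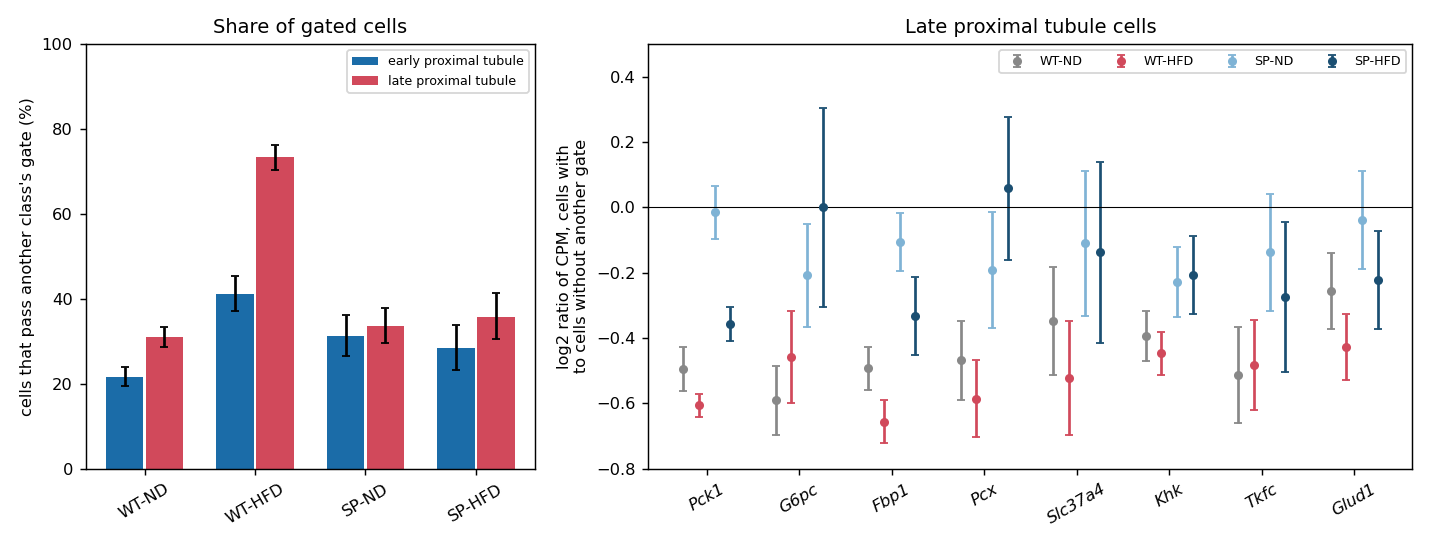
Left, the percent of early (blue) and late (red) proximal tubule cells that also pass the gate of a class outside the proximal tubule, by library, with Clopper-Pearson 95% intervals. Right, the log2 ratio of CPM of each enzyme gene between late cells with and without another gate, with exact 95% counting intervals, 1 point per library. The late WT-HFD bar is the tallest at 73.4%, and the late WT-HFD points lie between -0.66 and -0.43.

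In the late WT-HFD cells every one of the 8 genes was lower in cells that also passed another gate, with log2 ratios from -0.66 (Fbp1) to -0.43 (Glud1). The same held in late WT-ND cells, from -0.59 (G6pc) to -0.26 (Glud1). In late SP-ND cells the intervals of Pck1 (-0.02), Slc37a4 (-0.11), Tkfc (-0.14) and Glud1 (-0.04) included 0. In late SP-HFD cells the intervals of G6pc (0.00), Pcx (0.06) and Slc37a4 (-0.14) included 0. Over all 7522 genes measured in late WT-HFD cells the median ratio was 0.15. Whether the cells with another gate account for part of any difference between libraries was tested only by leaving them out, as given below.

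Since each condition is 1 library, the spread between replicates is unknown and no difference between conditions was tested. Intervals are at 95% and are exact Poisson ones for a level in CPM, Clopper-Pearson ones for a share and exact binomial ones, given the summed UMIs, for a log2 ratio, and they cover counting error only. A difference of at least 1.5-fold in either direction is called past the fold. The share of all measured genes past it (genes of at least 10 CPM in either group) is given beside each count, except counts recomputed under altered settings. All 8 genes passed this minimum in every comparison. Of the 12 alternative settings used below, the setting with no minimum CPM therefore could not change a ratio or a count of these genes. Counts over the 12 settings include it. The comparisons share libraries: both diet comparisons of a genotype use the same ND and HFD libraries in 2 segments, and each library enters a diet comparison and a genotype comparison.

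Pck1 encodes the cytosolic phosphoenolpyruvate carboxykinase, which turns oxaloacetate into phosphoenolpyruvate and is the step long studied for its transcriptional control. It lies on chromosome 2 from 173153048 to 173159273 (GRCm38, + strand). In early cells Pck1 was at 466 CPM on ND and 3577 on HFD in WT, and at 447 and 4999.7 CPM in SP. Both HFD libraries were far above both ND libraries, and the ND libraries differed by a log2 ratio, SP over WT, of -0.06 (-0.13 to 0.01). The diet ratio, HFD over ND on the log2 scale, was 2.94 (2.90 to 2.98) in WT, or 7.68-fold, and 3.48 (3.42 to 3.55) in SP, or 11.2-fold. In late cells the levels were 569, 2007, 634 and 3381 CPM in the same order, with ratios of 1.82 (1.78 to 1.85) in WT and 2.42 (2.37 to 2.46) in SP. Among all measured genes, 99.8% had a lower diet ratio than Pck1 in early WT cells, 99.7% in early SP cells, 98.6% in late WT cells and 99.1% in late SP cells. Without cells that pass another gate, the late ratios were 2.06 in WT and 2.54 in SP.

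The share of cells with Pck1 moved with its level. To compare cells of unlike depth, each was thinned to 1000 UMIs, which left out 1 to 41 early or late cells per library. A Pck1 UMI was then found in 34.8% (32.1 to 37.5) of early WT cells on ND and 89.7% (87.0 to 92.1) on HFD, and in 38.1% (33.2 to 43.3) and 93.7% (90.2 to 96.2) of early SP cells. Before thinning the shares were 86.7%, 99.5%, 89.5% and 99.3%. In late cells the thinned shares were 41.9%, 75.6%, 41.0% and 77.1%. Lymphocytes, which should not express Pck1, held a UMI in 6.67%, 18.7%, 4.42% and 18.5% of thinned cells, at median depths of 1890, 3525, 2496 and 3055.5 UMIs before thinning, and these shares are background. The proximal tubule share was above this background in every library, and the background itself was higher in both HFD libraries.

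G6pc encodes the catalytic subunit of glucose-6-phosphatase, which releases free glucose from glucose-6-phosphate in the endoplasmic reticulum. It lies on chromosome 11 from 101367561 to 101377903 (+ strand). Its order among libraries was unlike that of Pck1. In early cells G6pc was at 270.2 CPM on ND and 313 on HFD in WT, and at 182 and 173 CPM in SP, so that both WT libraries were above both SP libraries. The diet ratio in early cells in WT was 0.21 (0.14 to 0.28), and in SP it was -0.08 (-0.22 to 0.06), where the interval includes 0. In late cells the levels were 236, 137, 177 and 97.2 CPM, and HFD was lower than ND in both genotypes. These late ratios were -0.79 (-0.87 to -0.71) in WT and -0.87 (-1.03 to -0.70) in SP, lower than those of all but 2.36% and 2.76% of measured genes. G6pc was past the fold in late cells in all 12 alternative settings in both genotypes, at -0.66 in WT and -0.94 in SP without cells that pass another gate.

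The sequences just before the starts of Pck1 and G6pc are shown because these genes are often treated as a pair in gluconeogenesis and had unlike levels here. Glud1 is shown with them because its diet ratios came next in size after those of Pck1 in early cells. Each line gives the 250 bases before the RefSeq start on the strand of the gene, from RefSeq on GRCm38.p6, with matches to searched motifs in capitals. The gene positions in the text are from GENCODE, whose starts of Pck1 (173153048) and G6pc (101367561) lie inside these windows. Motif distances are counted from the RefSeq start.
Pck1, chr2:173152823-173153072, + strand: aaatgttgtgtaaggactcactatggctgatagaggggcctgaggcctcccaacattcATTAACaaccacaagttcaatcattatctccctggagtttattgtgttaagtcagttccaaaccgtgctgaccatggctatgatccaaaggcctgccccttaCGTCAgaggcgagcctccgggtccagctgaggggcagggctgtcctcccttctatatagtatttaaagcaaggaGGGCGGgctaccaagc
G6pc, chr11:101367466-101367715, + strand: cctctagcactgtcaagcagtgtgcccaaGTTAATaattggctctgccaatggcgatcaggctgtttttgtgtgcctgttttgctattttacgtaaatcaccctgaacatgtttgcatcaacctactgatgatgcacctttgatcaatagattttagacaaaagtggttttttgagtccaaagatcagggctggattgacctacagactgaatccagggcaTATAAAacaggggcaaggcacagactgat
Glud1, chr14:34310477-34310726, + strand: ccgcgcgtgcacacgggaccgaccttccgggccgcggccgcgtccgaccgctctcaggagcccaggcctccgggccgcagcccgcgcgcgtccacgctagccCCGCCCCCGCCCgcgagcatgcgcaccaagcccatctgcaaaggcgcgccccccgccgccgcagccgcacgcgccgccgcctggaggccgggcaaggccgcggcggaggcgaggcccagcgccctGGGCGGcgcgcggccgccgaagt

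The motifs searched on both strands were the cAMP response element core (TGACG), a forkhead site (GTAAACA), an HNF1 core (GTTAAT), an HNF4 core (CAAAGT), the Sp1 GC box (GGGCGG) and the TATA box (TATAAA). Of 32851 promoter windows of the same length in the RefSeq table, 17.8% hold TGACG, 3.17% GTAAACA, 6.43% GTTAAT, 12.6% CAAAGT, 32.7% GGGCGG and 12.4% TATAAA. The Pck1 window holds TGACG on the opposite strand 90 to 86 bases before the start, GTTAAT on the opposite strand 192 to 187 bases before it, and GGGCGG at 16 to 11 bases. The G6pc window holds GTTAAT at 221 to 216 bases and TATAAA at 29 to 24 bases before its start. Glud1 has GGGCGG as its only one of these motifs, 3 times, in a window of 82% G and C, against 50.8% in Pck1 and 43.2% in G6pc. All 8 genes have a window in the table, 3 of them for Slc37a4, and Pck1, Slc37a4 and Khk are the genes with TGACG in one. A match is a run of letters and not a shown binding site.

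Pcx encodes pyruvate carboxylase, the mitochondrial enzyme that makes oxaloacetate from pyruvate. The gene lies on chromosome 19 from 4510472 to 4621752 (+ strand) and overlaps Lrfn4 on the other strand. Pcx was at 169 and 248 CPM in early WT cells on ND and HFD, and at 113 and 213 CPM in early SP cells. Each HFD library was above both ND libraries, and SP-ND was the lowest. Its early diet ratio in WT was 0.55 (0.47 to 0.64), and in SP it was 0.92 (0.77 to 1.07). The SP value ranged from 0.29, with gates set on cells thinned to 2000 UMIs, to 1.65, with under 30% mitochondrial UMIs, so its size depends on which cells are taken. Late cells held 177, 187, 141 and 185 CPM, with ratios of 0.08 (0.00 to 0.16) and 0.39 (0.26 to 0.53).

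Fbp1 encodes fructose-1,6-bisphosphatase, the irreversible middle step, and lies on chromosome 13 from 62864753 to 62888282 (− strand). In early cells it was at 551 CPM on ND and 829 on HFD in WT, and at 476 and 689 CPM in SP. In late cells the 4 levels lay closer together, at 589, 598, 538 and 662 CPM. The early diet ratios were 0.59 (0.54 to 0.64) in WT and 0.53 (0.46 to 0.61) in SP, just inside and just outside the fold. The late ratios were 0.02 (-0.02 to 0.07) in WT and 0.30 (0.23 to 0.37) in SP. Leaving out cells with another gate raised the late WT ratio to 0.29, next to 0.39 in SP. This was the highest of the 12 alternatives, over which the late WT ratio ranged from -0.14 to 0.29. It was below 0 in 4 of them, so its sign depends on which cells are taken.

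Slc37a4 encodes the transporter that brings glucose-6-phosphate to glucose-6-phosphatase, on chromosome 9 from 44396852 to 44402968 (+ strand), where it overlaps the miRNA gene Mir7085. It had the lowest level of the 8 genes in early cells of each library, at 101 and 142 CPM in WT on ND and HFD, and at 94.4 and 129 CPM in SP. Early diet ratios were 0.50 (0.38 to 0.61) in WT and 0.45 (0.27 to 0.63) in SP. In late cells, SP-HFD at 121 CPM was above the other 3 libraries, which lay between 87.7 and 91.6 CPM. Its partner G6pc did not share this order. The late diet ratio of Slc37a4 in WT was -0.03 (-0.14 to 0.08), and in SP it was 0.46 (0.29 to 0.63). Without cells that pass another gate it was 0.20 and 0.48. Over the 12 alternatives the late WT ratio ranged from -0.24 to 0.20, and it was above 0 in 4.

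Khk encodes ketohexokinase, which phosphorylates fructose as its entry step, on chromosome 5 from 30921431 to 30931248 (+ strand). Early cells held 382 and 649 CPM in WT on ND and HFD, and 353 and 529.9 CPM in SP, and late cells 413, 604, 384 and 636 CPM. Both HFD libraries were above both ND libraries in each segment. The diet ratio was 0.77 (0.71 to 0.82) in early and 0.55 (0.50 to 0.60) in late WT cells. In SP cells it was 0.58 (0.49 to 0.67) in early and 0.73 (0.65 to 0.80) in late cells. The early SP value lay just outside the fold, at 1.499-fold.

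Tkfc encodes triokinase, which phosphorylates the glyceraldehyde formed when fructose is broken down. It lies on chromosome 19 from 10587791 to 10605654 (− strand) and overlaps Cyb561a3 and Ddb1 on the other strand. In each segment both HFD libraries were above both ND libraries, with 135, 193, 133 and 186 CPM in early cells and 123, 140.4, 135 and 179 CPM in late cells. The early diet ratios were 0.52 (0.42 to 0.62) in WT and 0.49 (0.34 to 0.64) in SP. The late ratios were 0.19 (0.09 to 0.28) and 0.41 (0.27 to 0.54). Without cells that pass another gate they were 0.35 in WT and 0.46 in SP. Over the 12 alternatives the late WT ratio ranged from -0.002 to 0.35, and it was below 0 in 1. In cells of 5000 to 20000 UMIs, late WT-HFD held 121 CPM and late SP-ND 134 CPM, so the late order depends on which cells are taken. Tkfc was past the fold in no diet comparison.

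Glud1 encodes glutamate dehydrogenase, the mitochondrial enzyme that frees ammonia from glutamate and yields alpha-ketoglutarate, on chromosome 14 from 34310727 to 34345265 (+ strand). In early cells it was at 186 CPM on ND and 383 on HFD in WT, and at 192 and 522 CPM in SP. The pattern was that of Pck1 at a smaller size, with ND libraries of both genotypes at one level and SP-HFD the highest. Its early diet ratio in WT was 1.04 (0.96 to 1.11), and in SP it was 1.44 (1.34 to 1.55). In late cells the levels were 178, 264, 191 and 409 CPM, with ratios of 0.57 (0.49 to 0.64) in WT and 1.10 (1.00 to 1.20) in SP. The late WT value was outside the fold, and it was 0.76, past the fold, without cells that pass another gate. Over the 12 alternatives the late WT ratio ranged from 0.34 to 0.76, and it was past the fold in 5.

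**Figure D2:**
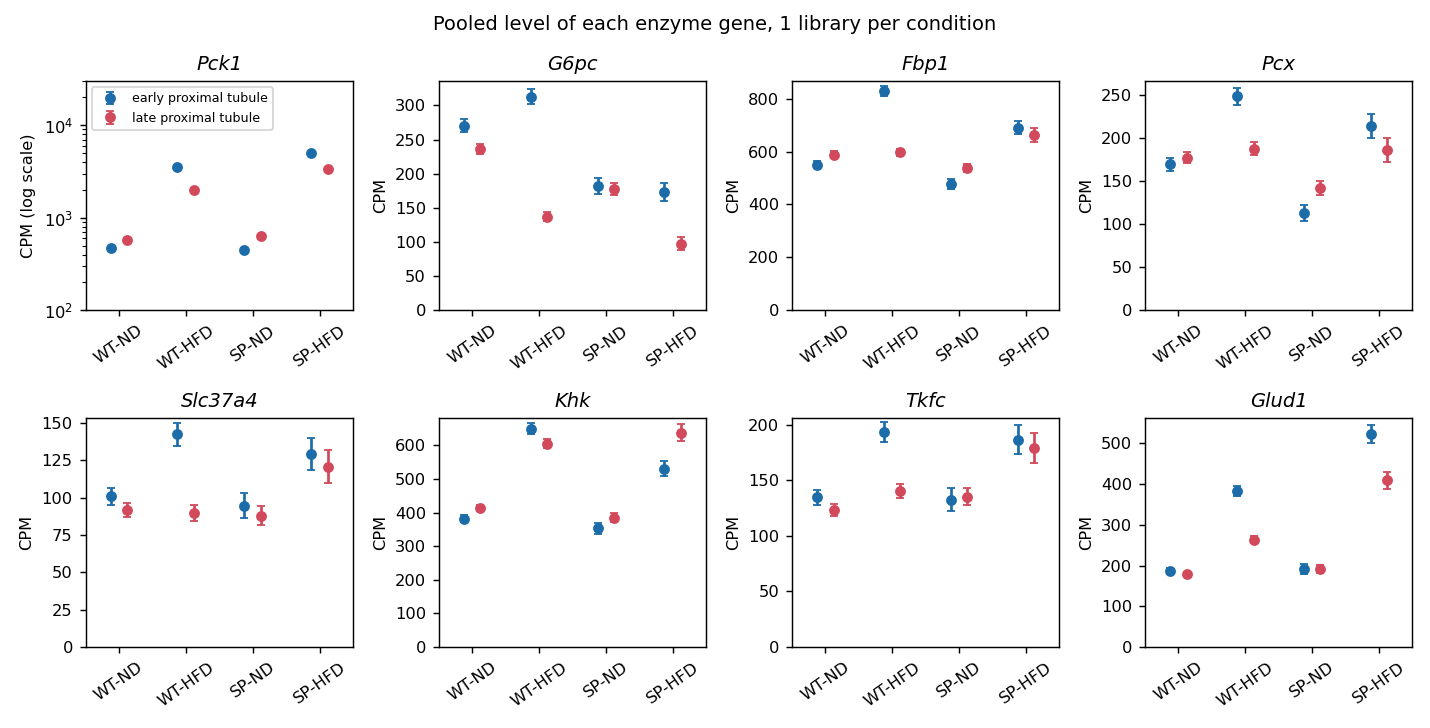
Pooled level of each gene in CPM (Pck1 on a log axis, the others on linear axes from 0) in early (blue) and late (red) proximal tubule cells of each library, with exact Poisson 95% counting intervals. Pck1 and Glud1 are high in both HFD libraries, and G6pc is the gene whose late level is lower on HFD in both genotypes.

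Counted over the diet comparisons, 4 of the 8 genes (Pck1, Glud1, Khk and Fbp1) were past the fold in early WT cells, all higher on HFD, where 10.5% of the 7176 measured genes were past it, 5.7% higher and 4.75% lower. In early SP cells, 3 genes (Pck1, Glud1 and Pcx) were past it, all higher, where 17.7% of measured genes were past it, 7.65% higher and 10.1% lower. In late WT cells 1 gene was higher (Pck1) and 1 lower (G6pc), against 16.8% of measured genes, 11.4% higher and 5.44% lower. In late SP cells 3 genes were higher (Pck1, Glud1 and Khk) and 1 lower (G6pc), against 18.3%, 12.2% higher and 6.11% lower. All 8 diet ratios were above 0 in early WT cells and 7 in early SP cells, where 48.5% and 45.0% of measured genes had ratios above 0. The median over the 8 genes was 0.57 in early WT and 0.56 in early SP cells, and over all measured genes -0.01 and -0.04. In late cells it was 0.13 in WT and 0.43 in SP, with medians over all measured genes of 0.03 and 0.07. These late values include cells that pass another gate. Without those cells Pck1 (2.06), Glud1 (0.76), Khk (0.72) and G6pc (-0.66) were past the fold in late WT cells. The same genes were past it in late SP cells. The remaining late ratios then lay between 0.20 (Slc37a4) and 0.35 (Tkfc) in WT, and between 0.30 (Pcx) and 0.48 (Slc37a4) in SP.

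**Figure D3:**
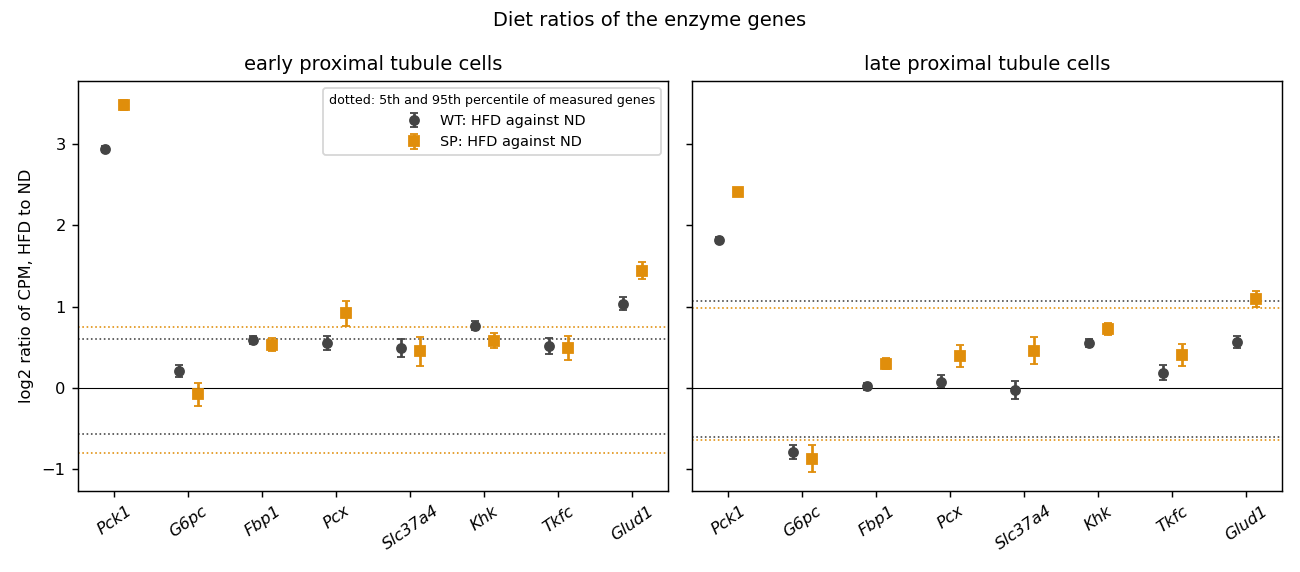
Log2 ratio of CPM between HFD and ND for each gene in WT (grey circles) and SP (orange squares), in early (left) and late (right) proximal tubule cells, with exact 95% counting intervals. Dotted lines are the 5th and 95th percentiles of all measured genes in the same comparison, and Pck1 lies above the upper line in all 4 comparisons while G6pc lies below the lower line in late cells.

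The comparison of SP with WT asks how the levels of these genes differed with the mutation of the glucose cotransporter on each diet. On ND, 0 of the 8 genes were past the fold in early cells, where 6.09% of measured genes were (3.3% higher, 2.79% lower), and 0 in late cells, where 6.16% were (2.18% higher, 3.98% lower). The values nearest to it were those of Pcx at -0.58 (-0.72 to -0.45) and G6pc at -0.57 (-0.67 to -0.46) in early cells, both lower in SP. Pcx was past the fold in 5 of 12 alternative settings and G6pc in 3. The other 6 genes had early ratios from -0.21 (Fbp1) to 0.04 (Glud1). In late cells on ND, G6pc at -0.41 and Pcx at -0.33 were again the lowest, and the highest was Pck1 at 0.15. The median of all measured genes was 0.05 in early and 0.03 in late cells.

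On HFD, G6pc was the gene past the fold in early cells, 1 of 8 against 3.8% of measured genes, 1.71% higher and 2.09% lower. It was lower in SP by a log2 ratio of -0.85 (-0.97 to -0.74), a value under that of all but 0.953% of measured genes, and it stayed past the fold in all 12 alternative settings. Pck1 at 0.48 (0.46 to 0.51) and Glud1 at 0.45 (0.37 to 0.53) were higher in SP, and the other 5 genes lay between -0.29 (Khk) and -0.05 (Tkfc). Thus Pck1 and G6pc differed in opposite directions between the same 2 libraries. In late cells on HFD, 2 genes were past the fold, Pck1 at 0.75 (0.72 to 0.78) and Glud1 at 0.63 (0.55 to 0.72), both higher in SP, against 13.4% of measured genes, 5.6% higher and 7.84% lower. G6pc was at -0.49 (-0.66 to -0.33). These late values rest on the WT-HFD cells described above. Without cells that pass another gate they became 0.51 for Pck1, 0.45 for Glud1 and -0.78 for G6pc, so that G6pc was the gene past the fold. The median mitochondrial share of early cells was 37.2% in SP-HFD and 32.1% in WT-HFD, and of late cells 28.4% and 30.1%. Its part in these values was tested only by other limits on that share and by a denominator without mitochondrial UMIs.

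The diet ratios of the genotypes can be set side by side but not compared by a test. The ratio was larger in SP than in WT for Pck1, Glud1 and Pcx in both segments, and for all genes but G6pc in late cells. Without cells that pass another gate, the late ratios of Khk were 0.72 in WT and 0.73 in SP, and those of Pcx 0.32 and 0.30. The late differences of Pck1 (2.06 and 2.54) and Glud1 (0.76 and 1.17) remained in that direction.

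Along the tubule, the early and late cells come from the same libraries, and 29 to 230 cells per library passed both gates and were counted in both. On ND no gene was past the fold between late and early cells, 0 of 8 in WT, where 6.53% of measured genes were (2.62% higher, 3.91% lower), and 0 of 8 in SP, where 11% were (3.37% higher, 7.58% lower). Pck1 was somewhat higher in late cells, with log2 ratios of 0.29 (0.24 to 0.34) in WT-ND and 0.50 (0.43 to 0.58) in SP-ND. On HFD it was lower in late cells, at -0.83 (-0.86 to -0.81) in WT-HFD and -0.56 (-0.60 to -0.53) in SP-HFD. In WT-HFD all 8 ratios were below 0, and 3 genes were past the fold: Pck1, G6pc at -1.19 (-1.28 to -1.10) and Slc37a4 at -0.67 (-0.78 to -0.55), against 12.4% of measured genes, 8.22% higher and 4.13% lower. In SP-HFD, 1 gene was past it, G6pc at -0.83 (-1.01 to -0.65), against 10.8%, 6.73% higher and 4.05% lower. Without cells that pass another gate, WT-HFD late cells held 2606 CPM of Pck1 against 4082 in early cells, and 167 CPM of G6pc against 355, and 2 genes stayed past the fold. The WT-HFD ratio of Khk was then above 0, at 0.11. G6pc was lower in late than in early cells in all 4 libraries, by -0.19 in WT-ND and -0.04 in SP-ND, the latter within counting error.

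Outside the proximal tubule, every class held some UMIs of these genes. Free RNA in the suspension gives such UMIs, and its level was estimated from 6 other proximal tubule genes (Slc34a1, Miox, Slc22a6, Slc13a3, Acy3 and Keg1): their level in a class, relative to the proximal tubule cells of the same library, gives the level each enzyme gene would have from free RNA alone. Over 9 classes and 4 libraries, Fbp1 was at 0.45 to 1.51 times that level, Pck1 at 0.85 to 1.53 times and G6pc at 0.37 to 1.93 times. The interval lay above the free RNA level in 3 of 36 groups and below it in 4 for Fbp1, and in 3 and 5 for G6pc, and these levels are read as background. For Pck1 it lay above in 10 groups and below in 1, among them endothelial cells in 3 of 4 libraries at 1.20 to 1.24 times, so a small excess over free RNA was measured in some classes, and no expression is read from it. High Pck1 levels in HFD libraries were near the estimated level too. Examples in WT-HFD are 468 CPM in the distal convoluted tubule and 937 CPM in intercalated cells, against 52.2 and 81.7 CPM in WT-ND. In endothelial cells and lymphocytes Pck1 reached at most 222 and 200 CPM in any library. Mixed droplets with proximal tubule RNA would keep the 6 genes and the enzyme genes in the same ratio. A level near this estimate therefore does not tell free RNA from mixed droplets, and the source was not tested.

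Glud1 differed from the others in this respect. It was above the free RNA level in all 9 classes in each library, at 1.71 to 14.7 times that level. In the thick ascending limb it was at 164, 164, 161 and 181 CPM, and in endothelial cells at 188, 190.3, 165 and 182 CPM. Macrophages held 165 to 201 CPM, podocytes 132 to 159, principal cells 93.3 to 107 and lymphocytes 50.01 to 73.6 CPM. The thick ascending limb, endothelial cells and macrophages thus held levels near those of ND proximal tubule cells. HFD over ND was 0.98 to 1.16 times in WT in 8 of the 9 classes and 0.71 to 1.24 times in SP in the same classes, and in intercalated cells it was 1.53 and 1.54 times. In these cells the free RNA level of Glud1 was 24.2 and 108 CPM in WT on ND and HFD, of 121 and 185 CPM measured, and 14.0 and 28.3 CPM in SP, of 116 and 179 CPM, so it was higher on HFD as well. A difference between classes in the diet ratio could not be tested with 1 library per condition.

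Tkfc was above the free RNA level in podocytes, at 62.4, 74.9, 49.0 and 52.5 CPM in the 4 libraries, which is 4.95 to 8.28 times that level, from 76 to 140 UMIs per library. In the other 8 classes it was at 0.32 to 2.79 times. Slc37a4 was above the free RNA level in all 4 libraries in the thick ascending limb, distal convoluted tubule, intercalated cells, podocytes and endothelial cells, at 1.37 to 4.28 times. Khk was above it in all 4 libraries in macrophages (1.42 to 2.47 times), endothelial cells (1.38 to 1.79), the thick ascending limb (1.30 to 1.76) and the distal convoluted tubule (1.13 to 1.47). Pcx was at 0.29 to 2.36 times, and was above the level in all 4 libraries only in the thick ascending limb. The intervals take the estimated free RNA level as exact and leave out the error of that estimate. As for Pck1, no expression is read from these values of Slc37a4, Khk and Pcx.

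**Figure D4:**
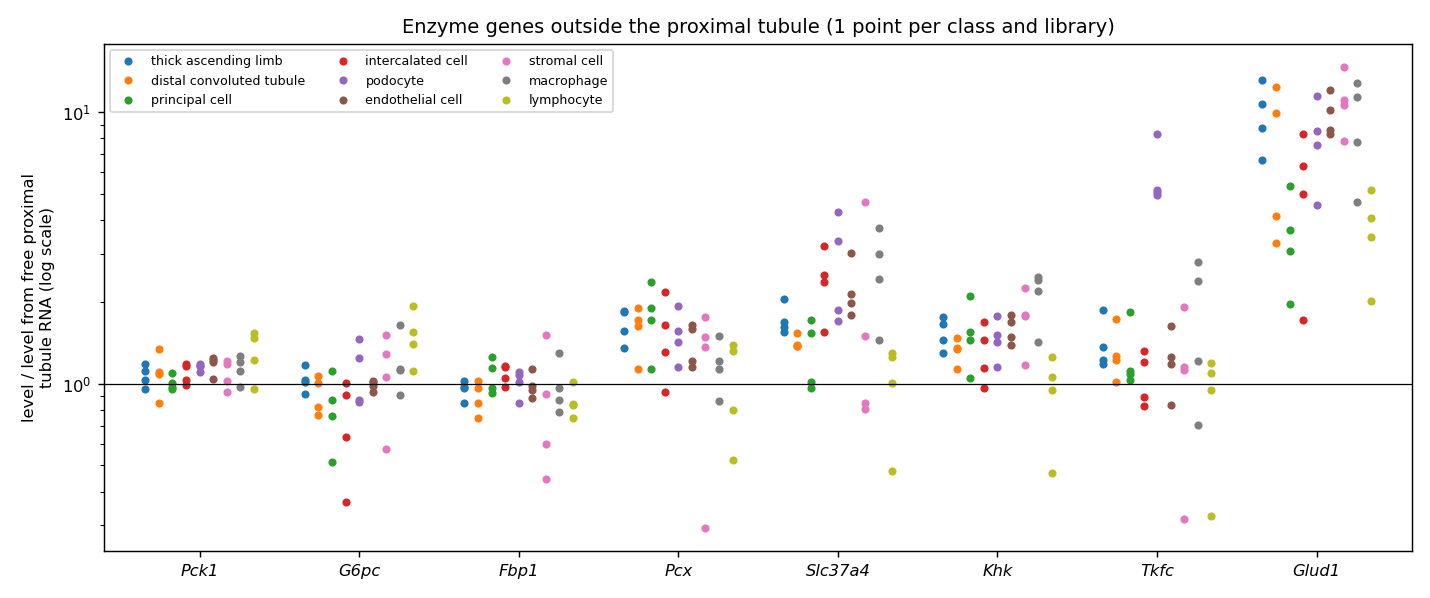
Level of each gene in 9 classes outside the proximal tubule, divided by the level that free proximal tubule RNA would give (log axis), 1 point per class and library, with classes by colour. Pck1, G6pc and Fbp1 gather about the line at 1, Glud1 lies above it in every class, and the podocyte points of Tkfc lie between 4.95 and 8.28.

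Because each UMI counts 1 transcript at its 3′ end, levels of different genes can be set beside each other without a correction for length, apart from unequal capture. In early cells, Fbp1 was the highest of the 8 genes in both ND libraries and Pck1 in both HFD libraries. On HFD, Pck1 was 4.32 times Fbp1 in WT and 7.25 times in SP, and on ND it was 0.84 and 0.94 times. The proximal tubule groups were the highest 2 of 11 groups for each gene by the mean over libraries. For Glud1 the step from late proximal tubule cells (178 to 409 CPM) to macrophages (165 to 201 CPM) overlapped in range over libraries, as did macrophages and endothelial cells, the next in order.

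The other genes of these pathways were read from 5 lists of 44 different genes. Each list is short, and no count is read as a result about its list. Among 12 measured of 14 genes for the shared steps and paralogs of gluconeogenesis, 0 were higher and 1 lower past the fold with HFD in early WT cells, and 0 higher and 2 lower in early SP cells. The shares of all measured genes were 5.7% higher and 4.75% lower in early WT, and 7.65% higher and 10.1% lower in early SP cells. Among the highest were Mdh1 (685 to 907 CPM in early cells), the cytosolic malate dehydrogenase, and Gapdh (651 to 943 CPM), the glyceraldehyde-3-phosphate dehydrogenase. Fbp2, the muscle-type paralog of Fbp1, was lower on HFD, at 39.2, 20.7, 45.5 and 14.9 CPM in early cells, where Fbp1 was higher. Its log2 ratio in early SP cells was -1.61 (-2.03 to -1.20). Pck2, the mitochondrial carboxykinase, was at 4.06 to 7.88 CPM in early and late cells, under the minimum of 10 CPM, and is named though the naming rule did not select it.

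Of 6 genes for fructose and the polyol path, 2 were higher past the fold in early WT and 1 in late WT cells on HFD. In SP, 1 was higher in early and 2 in late cells, and none was lower in these 4 comparisons. In the same order, 5.7%, 11.4%, 7.65% and 12.2% of all measured genes were higher past the fold. The shares lower past it were 4.75%, 5.44%, 10.1% and 6.11%. Akr1b3, the aldose reductase that opens the path from glucose to fructose, was at 25.5, 90.2, 37.5 and 92.4 CPM in early cells, with diet ratios of 1.83 (1.64 to 2.02) in WT and 1.30 (1.05 to 1.56) in SP. Its late levels were 63.1, 161, 25.6 and 134 CPM, with ratios of 1.35 and 2.39. Sord, which converts sorbitol to fructose, was at 308 to 352 CPM in early cells. Slc2a2, a glucose and fructose transporter, was at 137 to 153 CPM in early and 69.4 to 95.9 CPM in late cells.

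The list for glutamine and ammonia had 5 measured of 6 genes in early cells, with 1 higher on HFD in WT and 2 in SP, and 1 and 3 higher in late cells, with none lower. Among all measured genes, 5.7% and 7.65% were higher past the fold in early WT and SP cells, and 4.75% and 10.1% lower. In late cells 11.4% and 12.2% were higher, and 5.44% and 6.11% lower. Slc38a3, a glutamine transporter, was scarce and higher in both HFD libraries, with 0.08, 4.93, 0.97 and 10.97 CPM in early and 0.29, 7.96, 3.18 and 24.04 CPM in late cells. The early WT-ND value is 1 UMI, and the ratio of 5.91 has a counting interval from 3.36 to 11.2. Ogdh at 162 to 187 CPM and Glul at 131 to 163 CPM were among the highest of this list in early cells, and neither was past the fold with diet there. Gpt, an alanine aminotransferase, was lower in SP on ND, with 3.48 against 12.2 CPM in early cells and a ratio of -1.81 (-2.61 to -1.10).

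For substrate entry, 2 of 7 genes were higher and 1 lower with HFD in early WT cells, 2 higher and 0 lower in early SP cells, and 0 higher and 1 lower in late cells of either genotype. Measured genes as a whole were past the fold in 10.5% and 17.7% of cases in early WT and SP cells, 5.7% and 7.65% higher. In late WT and SP cells 16.8% and 18.3% were past it, 5.44% and 6.11% lower. The mitochondrial pyruvate carrier genes Mpc1 (329, 506, 370 and 468 CPM) and Mpc2 (481, 715, 544 and 617 CPM) and the lactate dehydrogenase gene Ldhb (797 to 1004 CPM) were the highest. Slc5a8, a lactate and short-chain fatty acid cotransporter, was at 26.9, 59.5, 14.1 and 69.5 CPM in early cells. Slc16a1, a lactate and pyruvate carrier, was lower on HFD in both genotypes, at 37.0, 17.2, 37.9 and 26.1 CPM in early cells and 30.7, 10.3, 25.6 and 13.7 CPM in late cells. Its early ratios were -1.11 (-1.37 to -0.85) in WT and -0.54 (-0.89 to -0.19) in SP, the latter short of the fold, and its late ratios were -1.57 and -0.90.

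Of 12 regulators, 0 were past the fold with HFD in early WT cells. In late WT cells 1 was higher and 1 lower, and in SP 2 were higher and 1 lower in each segment. Past the fold were 10.5% of all measured genes in early WT and 16.8% in late WT cells. The share was 17.7% in early SP and 18.3% in late SP cells. Hnf4a, a nuclear receptor of proximal tubule identity, was at 225, 189, 249.8 and 262 CPM in early cells. In late cells it was at 199, 142, 223 and 219 CPM. Its late diet ratios were -0.48 (-0.57 to -0.40) in WT and -0.03 (-0.15 to 0.09) in SP. Between SP and WT on HFD its late ratio was 0.62 (0.50 to 0.74), past the fold. Nr3c1, the glucocorticoid receptor gene, was at 92.3, 70.9, 97.3 and 79.8 CPM, in early cells, lower on HFD in both genotypes by less than the fold. In late cells it was at 73.2, 48.3, 87.2 and 57.4 CPM and was the regulator lower past the fold, with ratios of -0.60 (-0.74 to -0.46) in WT and -0.60 (-0.83 to -0.39) in SP. Mlxipl, a carbohydrate-responsive factor, was at 64.2 to 81.1 CPM. Irs2, an insulin receptor substrate, was at 10.1, 11.4, 13.2 and 24.7 CPM in early cells and at 8.78, 16.6, 7.54 and 29.98 CPM in late cells, the highest in SP-HFD in both.

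The genes whose levels were most like each member were found by Pearson's r of log2(CPM + 1) over 44 points (11 classes in 4 libraries) among 6901 genes. The points share libraries and free RNA, and r is a description. Fbp1 was most like Slc34a1 (0.99) and Pdzk1, and G6pc most like Ass1 (0.96), Slc13a1 and Fam151a. Pck1 was most like Gldc (0.89), Dnase1 and Acat3. Khk was most like Nat8 (0.97), Tkfc like Cryzl2 (0.96), Pcx like Fbp1 (0.96) and Slc37a4 like Nlrp6 (0.93). Glud1 had the weakest best match, Tmem205 at 0.79.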

How the data were processed

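Whole kidneys of 4 conditions were measured by droplet scRNA-Seq, 1 library each. The authors deposited UMI counts per gene and barcode, not normalised. The file headers name Cell Ranger 6.1.2 and the submitters' processing notes Cell Ranger 2.1.1 with mm10, and which made the counts is not known. The study removed doublets with scDblFinder and by hand from marker combinations, and looked at free RNA with SoupX. The deposited counts still hold barcodes that its mitochondrial limit removes, and neither step was repeated here. How reads over overlapping genes were counted is not given in the sources used here.

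A barcode was kept if it held 200 to 5000 genes and less than 50% of its UMIs were mitochondrial. The latter limit removed 32.7% to 49.8% of barcodes per library. Gates took cells with at least 2 UMIs of a marker, and cells could pass several. Counts were summed per gate and library and given as CPM. Genes of at least 10 CPM in either group were measured, and a 1.5-fold difference was the call. With 1 library per condition no p-value was computed, and 95% intervals cover counting error only. Shares were compared after thinning cells to 1000 UMIs.

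The text names all 8 enzyme genes and, from each list, the 3 genes of highest mean early CPM and genes past 2-fold with at least 10 CPM in either group. Pck2 is named outside this rule, and some genes the rule selects are not reported here. Likeness was ranked among genes of at least 50 CPM in a class. Genes and lists were chosen with earlier results of these data known. The scripts (Python 3.11.15 with pandas 2.3.3, scipy 1.17.1, numpy 2.4.6 and matplotlib 3.10.9) were tested on simulated data, and 12 alternative settings were run, 2 of them chosen after seeing the data.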

Additional observations from a re-analysis of the deposited data

Results flagged for a closer look

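The log2 ratios below have opposite signs in 2 groups under the same contrast. Each group is 1 library, and the difference between the ratios was not tested. Between late and early cells, Pck1 was at 0.29 in WT-ND and -0.83 in WT-HFD, and at 0.50 in SP-ND and -0.56 in SP-HFD, with opposite signs in 12 of 12 alternative settings in each genotype. Fbp1 was at 0.10 in WT-ND and -0.47 in WT-HFD (12 of 12), Khk at 0.11 and -0.10 in the same libraries (8 of 12), and Pcx at 0.32 in SP-ND and -0.20 in SP-HFD (11 of 12). Between SP and WT in late cells, Fbp1 was at -0.13 on ND and 0.15 on HFD (7 of 12), and Khk at -0.10 and 0.07 (6 of 12). The WT-HFD values rest on the late cells of which 73.4% passed another gate, and without those cells Fbp1 and Khk were at -0.13 and -0.13 between SP and WT on HFD, the same sign as on ND. Between late and early cells that pass no other gate, Khk was at 0.19 in WT-ND and 0.11 in WT-HFD, the same sign. Fbp1 was at 0.16 and -0.18 there, still of opposite sign.

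Barcodes with 50% or more mitochondrial UMIs enter the comparisons above only in the alternative with no limit on mitochondrial UMIs. No upper limit on detected genes was set for the barcodes described here. Those passing the early gate numbered 584, 411, 592 and 445, and held Pck1 at 311, 2366, 357 and 2968 CPM. The log2 ratio of HFD to ND there in WT was 2.93 (2.85 to 3.00), and in SP it was 3.05 (2.99 to 3.12), above the ND libraries as in the kept cells.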

How the results depend on the processing

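No paired analysis was possible because each condition is 1 library, and leaving out a replicate was not possible for the same reason. Of 96 log2 ratios recomputed under 12 alternatives, 65 kept their sign in all, and of 20 past the fold all 20 kept their sign and 13 stayed past it in every alternative. Of 144 recomputed counts of genes past the fold, 31 moved by over 1.5 times, and the cause was not tested. These totals include the alternative with no minimum CPM. That alternative could not change a ratio or a count, because every enzyme gene passed the minimum. With diet in late WT cells (2 genes), the count was 4 with at least 4 gate UMIs, with gates on cells thinned to 2000 UMIs, without cells that pass another gate and with no upper limit on detected genes. With diet in early SP cells (3), it was 5 under 30% mitochondrial UMIs and 6 with no upper gene limit. Between SP and WT on ND in early cells (0), it was 1 with at least 4 gate UMIs, 1 under 30% mitochondrial UMIs, 3 with no mitochondrial limit, 2 with no upper gene limit and 2 relative to the median gene, and in late cells (0) it was 1 with no mitochondrial limit. On HFD in early cells (1), it was 2 with thinned gates and 2 in cells of 5000 to 20000 UMIs. On HFD in late cells (2), it was 1 as a mean over cells, with at least 4 gate UMIs, with thinned gates, without cells that pass another gate, with no mitochondrial limit and relative to the median gene. Between late and early cells of WT-HFD (3), it was 5 without cells in both gates and 5 in cells of 5000 to 20000 UMIs. In SP-ND (0), it was 1 under 30% mitochondrial UMIs and 1 with no upper gene limit. In SP-HFD (1), it was 3 as a mean over cells and 2 with a denominator free of mitochondrial UMIs, with at least 4 gate UMIs, with thinned gates, without cells in both gates, in cells of 5000 to 20000 UMIs and relative to the median gene. Without mitochondrial UMIs in the denominator, the median gene between SP and WT on ND moved from 0.05 to 0.13 in early and from 0.03 to 0.13 in late cells. The depth range and the scaling to the median gene were chosen after seeing the data.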
